A study of Mus musculus with 144 samples.

Results

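The cells described here were sorted from the retina by an Iba1 reporter and held Tnf at 20 FPKM or more, at day 4 or day 2 of optic nerve crush. Their markers, given below, are mainly those of microglia. FPKM counts fragments per length of gene and per total of assigned reads in the cell. The cells were chosen by their Tnf level alone, and 24 of the 36 sorted at day 4 and 16 of the 54 sorted at day 2 passed, together 40 of the 144 cells in the series. All cells were sorted one by one from the retina of Iba1-EGFP mice 16 weeks old, with nerve crush in the cells of day 2 and day 4 and no treatment in a further 54 cells, of which 10 passed the same Tnf level. The question asked of these cells was whether those that hold Tnf differ in state between the days, beyond their number. In this strain a fluorescent reporter follows Iba1 (gene Aif1), which is made by microglia and by other macrophages, so that the sort itself does not part the 2 kinds of cell.

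Tnf encodes tumour necrosis factor, a cytokine made as a membrane protein, released by the protease encoded by Adam17 and read by 2 receptors, encoded by Tnfrsf1a and Tnfrsf1b. Microglia are the resident macrophages of the retina and a main source of this cytokine after damage to the nerve. Gpr84 encodes a receptor for medium-chain fatty acids that is made by activated myeloid cells, and Il1a encodes interleukin-1 alpha, which microglia release together with tumour necrosis factor. Interferon-response genes are switched on when type I interferon binds its receptor and transcription factors reach their promoters.

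No label names an animal. Each day therefore stands for 1 sample, and differences between cells were described and not tested. Differences are day 4 minus day 2 in the mean over cells of log2(FPKM + 1), plates pooled, with the value in each of the 3 plates beside the main ones. SDs describe the spread between cells. A gene counts as past 1 when its difference was at least 1 in size and had the same sign in both plates with at least 5 Tnf-high cells per day, plates 2 and 3. Plate 1 held 7 members of day 4 and 2 of day 2, plate 2 held 11 and 8, and plate 3 held 6 and 6. The days sat in separate rows of every plate, so plate position and day cannot be told apart.

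Members of day 2 had a median of 3.53 M assigned reads (0.190 to 10.1) and those of day 4 a median of 6.47 M (2.33 to 17.5). Under 2 M reads were found in 5 of 16 and 0 of 24. In plate 3 the order was the other way, with medians of 7.87 M at day 2 and 3.47 M at day 4. A median of 4408.5 genes reached 1 FPKM per member at day 2 and 4523 at day 4, but the order differed by plate. It was 3315 and 4295 in plate 1, 4470 and 5162 in plate 2, and 5166.5 and 3792 in plate 3. The median difference over all 8679 measured genes followed it, at 0.54, 0.36 and -0.24 in the 3 plates and 0.13 pooled. List medians below are therefore to be read against 0.13 pooled and against these plate values. For some lists the median with detected genes as a covariate is given as well. That fit pooled the plates, where detected genes were close between the days, so it cannot address differences by plate.

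The label of the cells was checked against markers. Each of the 40 members had at least 6 of 10 microglia markers at 20 FPKM or more, with a median of 8 at day 2 and 9 at day 4. Border macrophages, those of vessels and meninges, have 8 markers in the list used, and 3 or more of them reached that level in 2 of 16 members of day 2 and 0 of 24 of day 4. Those 2 cells, 1 of plate 1 and 1 of plate 3, held 4 and 6 of the markers, and Pf4 stood at 1129 and 5152 FPKM in them. The summed level of the 8 markers ran from 0.212 to 6070 FPKM at day 2 and from 0.0395 to 94.1 at day 4. At least 3 markers of monocytes, T and NK cells, B cells, rods, cones, retinal ganglion cells, amacrine and bipolar cells, vessels or pigment epithelium reached 20 FPKM in 0 of 40 members. At least 3 neutrophil markers did in 0 of 16 and 1 of 24, and at least 3 of the Muller glia list, which holds Apoe and Glul, in 3 of 16 and 2 of 24. Results that rest on the 2 cells rich in border macrophage markers are given with and without them. Among Tnf-low cells, at least 3 border macrophage markers reached 20 FPKM in 6 of 38 at day 2 and 2 of 12 at day 4. At least 3 monocyte markers did in 2 of 38 and 0 of 12, and at least 3 microglia markers in 38 of 38 and 11 of 12. Values of Tnf-low cells below include all of these cells.

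Tnf itself chose the cells, so its level is a description only. It ran from 22.5 through a median of 210 to 1355 FPKM at day 2 and from 22.5 through 622 to 4297 FPKM at day 4. Just inside the threshold stood cells at 22.5, 32.6 and 37.9 FPKM at day 2 and at 22.5, 181 and 201 at day 4. Just outside stood cells at 18.99, 11.99 and 11.7 at day 2 and at 8.73, 5.54 and 4.51 at day 4. The lowest member of day 2 held 7 reads of Tnf in a cell of 0.190 M reads.

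Of 8679 measured genes, 603 were past 1 on the higher side at day 4 (6.95%) and 402 on the lower side (4.63%). Without the 2 cells rich in border macrophage markers the counts were 520 (5.99%) and 465 (5.36%), and 452 of the 603 and 328 of the 402 stayed past 1. In the cells under 20 FPKM of Tnf, 12 of day 4 and 38 of day 2, 624 genes were past 1 higher (7.19%) and 477 lower (5.5%).

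The interferon response had the highest pooled median of the 27 pathway lists and kept its size in every plate, although some lists of growth stood higher in plates 1 and 2. Its 16 measured members had a median difference of 1.22, with 1.31, 1.19 and 1.27 in plates 1, 2 and 3, beside 0.13 over all genes. Of these members 9 were past 1 higher and 0 lower, 56.2% beside 6.95% of all genes. The median was 1.22 without the cells rich in border macrophage markers and 1.27 with detected genes as a covariate. The first rank was lost when shallow cells were left out. With at least 1 M reads the interferon median was 1.12, below chaperones (1.18), ribosome biogenesis (1.17) and initiation and elongation factors (1.13). With at least 2 M reads it was 1.12, below initiation and elongation factors (1.28), ribosome biogenesis (1.18) and chemokines (1.14). In Tnf-low cells the interferon median was 0.15, with 0.02 and 0.04 in plates 1 and 3 and 2.94 in plate 2. The 1 Tnf-low cell of day 4 in plate 2 had at least 3 border macrophage markers at 20 FPKM. Of the 16 members 4 were past 1 higher and 1 lower in Tnf-low cells, beside 7.19% and 5.5% of all genes.

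Promoter letters of these genes are shown because the members were higher together and because the factors of the pathway bind a known kind of site. The repeated core of interferon-stimulated response elements (GAAA, then any 2 bases, then GAAA again) was searched on both strands in the 250 bases before each gene start in the RefSeq table of GRCm38.p6. It was found in 978 of 32851 promoters (2.98%), or in 3.46% of genes with an entry. Of the 18 interferon genes 13 had an entry, and 7 of these held it. Of the 9 genes past 1, 6 had an entry and 3 held it, namely Isg15, Oas1a and Stat2. Matches can overlap each other. Isg15 had 3, from 78, 72 and 66 bases before its start, and Oas1a had 2, from 20 and 14 bases before it. The 120 bases before the start of Isg15 (chr4:156200819-156200938, minus strand) and of Oas1a (chr5:120907526-120907645, minus strand) follow, 5′ to 3′ as transcribed, with the matched letters in capitals.
Isg15: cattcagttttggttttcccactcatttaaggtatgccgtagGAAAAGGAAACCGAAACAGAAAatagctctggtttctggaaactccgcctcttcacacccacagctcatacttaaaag
Oas1a: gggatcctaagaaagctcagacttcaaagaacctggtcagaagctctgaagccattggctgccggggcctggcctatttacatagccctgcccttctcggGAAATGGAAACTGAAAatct
A match is a description of letters and says nothing on whether a factor was bound in these cells.

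Rtp4, a chaperone for membrane receptors that interferon induces, had the largest difference of the list. It ran from 0 through 1.51 to 182 FPKM at day 2 and from 0 through 70.0 to 843 FPKM at day 4. It reached 20 FPKM in 2 of 16 members of day 2 and 15 of 24 of day 4, so that the groups overlapped and differed in the share of cells with a high level. The mean was 2.12 ± 2.13 at day 2 and 5.06 ± 3.45 at day 4 (SD, n = 16 and 24 cells), a difference of 2.94, and 2.25, 3.02 and 2.97 in the 3 plates. In Tnf-low cells the difference was -1.12, with 8 of 38 and 1 of 12 cells at 20 FPKM. Rtp4 (chr16:23520291-23614222, plus strand) shares exon positions with Gm45338, which the counts here cannot part from it.

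Ifitm3, a membrane protein that restricts virus entry, ran from 0.979 through 36.3 to 1491 FPKM at day 2 and from 4.64 through 366 to 4085 at day 4. Its difference was 2.76, and 0.73, 3.76 and 1.90 by plate. Tnf-low cells had a pooled difference of 2.27, with -0.70, 5.67 and 3.18 by plate, where plate 2 held 1 Tnf-low cell of day 4. Mx1, an antiviral GTPase, reached 20 FPKM in 0 of 16 and 7 of 24 members and Zbp1, a sensor of nucleic acids, in 0 of 16 and 9 of 24, with differences of 1.75 and 1.67. In Tnf-low cells these 2 stood at -0.09 and -0.34.

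Of the other interferon genes past 1, Oas1a (a sensor of double-stranded RNA) was higher by 1.45 and Isg15 (a ubiquitin-like protein) by 1.41. Xaf1 was higher by 1.35, Irf7 (a transcription factor of the pathway) by 1.24 and Stat2 by 1.08. These 5 genes lie outside the rule for named genes and were chosen after their values were seen. Isg15 was past 20 FPKM in 2 of 16 and 10 of 24 members, and Irf7 in 3 of 16 and 10 of 24. Of the values of Oas1a and Xaf1, 73.6% and 61.1% were fractions of a read. In Tnf-low cells Oas1a, Xaf1 and Irf7 stood at 1.19, 1.49 and 1.35 and Isg15 and Stat2 at -0.19 and -0.14, so these genes were not alike in the cells under the Tnf level. Members that were not past 1 include Ifit2 at -0.06 and Ifit3 at -0.68, also chosen after their values were seen.

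Cell by cell, the interferon difference lay in a part of the members of day 4. A median of 2.5 of the 18 genes reached 20 FPKM in a member of day 2 (0 to 6) and 5 in a member of day 4 (1 to 17). At least 8 did in 0 of 16 members of day 2 (95% exact Clopper-Pearson interval 0 to 20.6%) and 9 of 24 of day 4 (37.5%, 18.8 to 59.4%). This count of 8 was chosen after the values were seen, and intervals cover counting error only. The 9 cells came from every plate, with 2 of 7, 5 of 11 and 2 of 6. Among Tnf-high untreated cells it was 1 of 10, and among Tnf-low cells 6 of 38 at day 2 and 2 of 12 at day 4. Interferon genes at 20 FPKM were thus seen at day 2 too, in cells under the Tnf level. At least 3 of the genes reached 20 FPKM in 8 of 16 members of day 2 and 18 of 24 of day 4. In Tnf-low cells at least 3 did in 14 of 38 and 7 of 12, so this share was higher at day 4 at both Tnf levels.

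**Figure D1:**
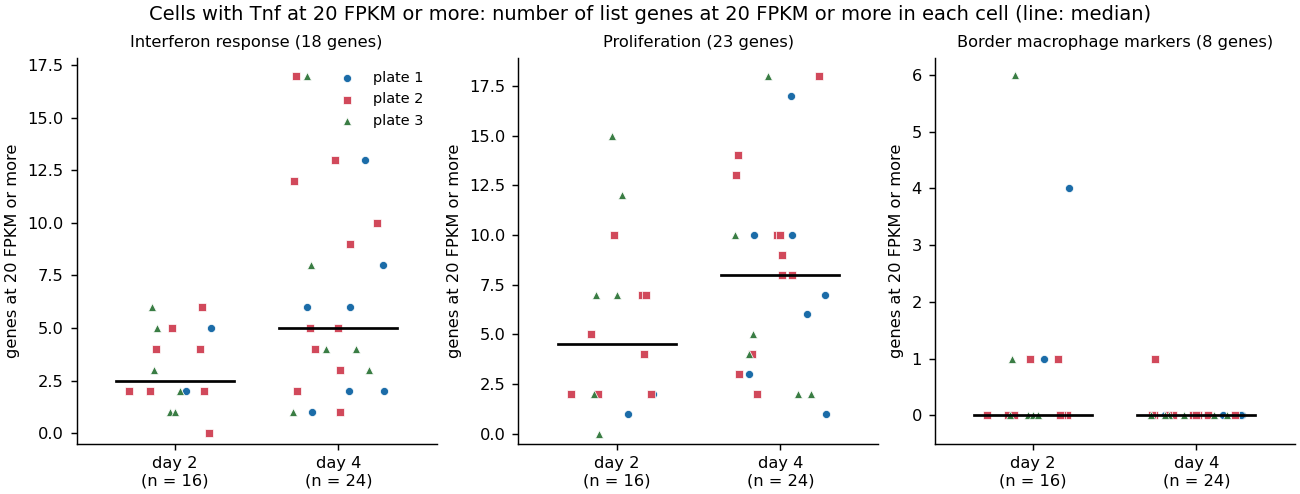
Number of genes at 20 FPKM or more (y axis) in each Tnf-high cell of day 2 and day 4 (x axis) for the interferon response, proliferation and border macrophage lists; colour and shape give the plate and the line the median. At least 8 interferon genes are seen in 0 of 16 and 9 of 24 cells, at least 8 proliferation genes in 3 of 16 and 13 of 24, and 2 cells of day 2 stand apart in border macrophage markers.

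Genes of DNA replication and tubulins were higher in members of day 4, while 2 genes of mitosis were lower. The proliferation list had a median of 0.71 over 20 measured members, with 6 past 1 higher (30%, beside 6.95% of all genes) and 2 lower (10%, beside 4.63%). By plate it was 1.66, 0.73 and 0.00, and 0.51 without the cells rich in border macrophage markers, where 3 were past 1 higher, beside 5.99% of all genes. Mcm3 and Mcm2, subunits of the replicative helicase, were higher by 1.81 and 1.24. Tubb5, Mcm7, Tyms and Tuba1b, chosen after their values were seen, were higher by 1.19, 1.12, 1.09 and 1.09. Mcm3 ran from 0.105 through 0.943 to 176 FPKM at day 2 and from 0.0218 through 22.4 to 314 at day 4, at 20 FPKM in 3 of 16 and 12 of 24 cells. Ccnb2, a cyclin of mitosis, stood at -1.74 (-0.59, -0.12 and -3.58 by plate), so that its difference was mostly that of plate 3. Birc5, a protein of chromosome segregation chosen after its values were seen, stood below 0 at -1.157.

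At least 8 of the 23 proliferation genes reached 20 FPKM in 3 of 16 members of day 2 (18.8%, 4.05 to 45.6%) and 13 of 24 of day 4 (54.2%, 32.8 to 74.4%). By plate these were 0 of 2, 1 of 8 and 2 of 6 at day 2 and 3 of 7, 8 of 11 and 2 of 6 at day 4. In plate 3 the shares were equal. Of the 24 members of day 4, 5 held both at least 8 interferon and at least 8 proliferation genes, 4 the first alone, 8 the second alone and 7 neither. In Tnf-low cells the list had a median of 0.52 (-0.13, 4.86 and 1.36 by plate) and Mcm3 a difference of 2.46. There 7 of the 20 measured members were past 1 higher and 0 lower, beside 7.19% and 5.5% of all genes. At least 8 of the genes reached 20 FPKM in 4 of 38 Tnf-low cells of day 2 and 4 of 12 of day 4. This share was thus higher at day 4 at both Tnf levels.

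**Figure D2:**
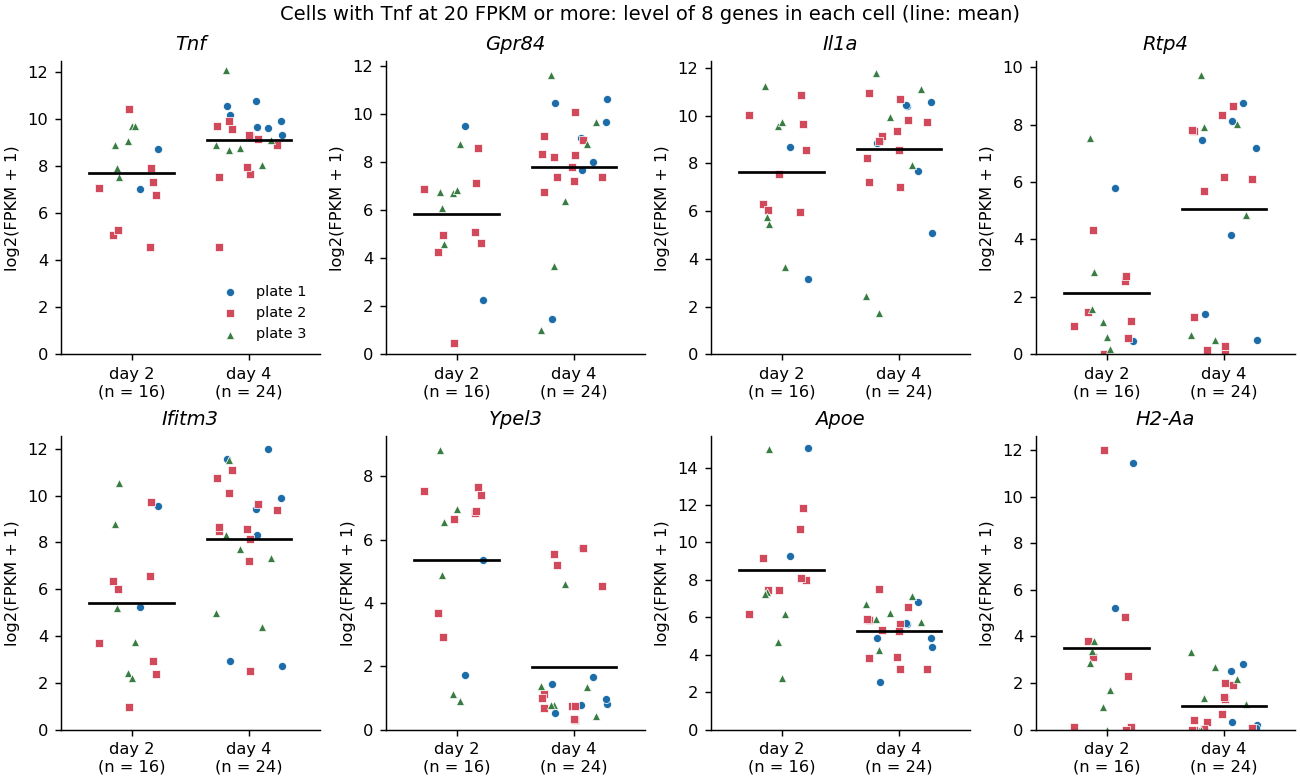
Level of 8 genes as log2(FPKM + 1) (y axis) in each Tnf-high cell of day 2 (n = 16) and day 4 (n = 24); colour and shape give the plate and the line the mean. Rtp4 is at 20 FPKM or more in 2 of 16 and 15 of 24 cells, Ypel3 is at 20 FPKM or more in 11 of 16 and 6 of 24 cells, and the highest Apoe values are cells of day 2.

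The genes named with Tnf in the title of the series were present in most members on both days. Gpr84 reached 20 FPKM in 13 of 16 members of day 2 and 21 of 24 of day 4, Il1a in 14 of 16 and 22 of 24, and both in 12 of 16 and 21 of 24. Gpr84 ran from 0.385 through 85.6 to 729 FPKM at day 2 and from 1.04 through 307 to 3240.1 at day 4, and its mean was higher by 1.97 (5.86 ± 2.36 and 7.83 ± 2.60, SD). By plate this was 2.24, 2.88 and 0.24. The difference in plate 3 was thus the smallest of the 3, and it was 1.62 without the cells rich in border macrophage markers. Il1a ran from 7.85 through 282 to 2420.5 FPKM at day 2 and from 2.29 through 530.3 to 3529 FPKM at day 4, a difference of 0.98 (2.95, 0.94 and -0.08 by plate) that was not past 1.

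At a level of 100 FPKM the days stood further apart than at 20. Both Gpr84 and Il1a reached 100 FPKM in 7 of 16 members of day 2 (43.8%, 19.8 to 70.1%) and 19 of 24 of day 4 (79.2%, 57.8 to 92.9%), but in 3 of 6 on each day in plate 3. Of the values of Gpr84 and Il1a above 0, 60.4% and 52.8% were fractions of a read, so the level of both genes is uncertain. Each also shares exon positions with another row of the table, Gm49482 and Gm14023. In Tnf-low cells Gpr84 stood at 0.74 and Il1a at 0.27.

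Other parts of the Tnf system showed little common direction. The 8 measured genes of receptors, release and signalling had a median of 0.17, with 1 past 1 on each side (12.5%, beside 6.95% and 4.63% of all genes). Tnfrsf1b, a receptor, stood at -1.52 (-3.18, -0.11 and -2.77 by plate), at 20 FPKM in 6 of 16 and 4 of 24 cells. Tnfrsf1a stood at 0.02 and the protease gene Adam17 at 0.49, neither past 1. Elavl1, which encodes a protein that binds and stabilises messenger RNA, was higher by 1.70, in 1 of 16 and 6 of 24 cells at 20 FPKM. The NF-kB list, the transcription factors that drive Tnf and their inhibitors, had a median of 0.00 over 12 measured members. Only Nfkb1 was past 1, at 1.21 (8.33% higher, beside 6.95% of all genes), which is near the background. It reached 20 FPKM in 0 of 16 and 6 of 24 cells. Its median was 0.233 FPKM at day 2 and 0.153 at day 4.

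Chemokines, which draw other leukocytes, were mixed. The list had a median of 0.67 over 11 measured members, with 2 past 1 higher and 2 lower (18.2% each, beside 6.95% and 4.63% of all genes), and 0.50, 1.31 and -0.63 by plate. Without the cells rich in border macrophage markers, 4 were past 1 higher (beside 5.99% of all genes) and 0 lower, with a median of 1.04. Ccl12 was at 20 FPKM in all 40 members and ran from 40.8 through 1607 to 49494 FPKM at day 2 and from 557 through 8805 to 38380.3 at day 4. Its difference of 2.15 lay mostly in plate 2 (0.39, 3.77 and 0.52), and Tnf-low cells showed one of 2.97. Cxcl10, an interferon-induced chemokine chosen after its values were seen, was higher by 1.69 and at 20 FPKM in 2 of 16 and 10 of 24 cells. Ccl2 and Ccl4 stood at 1.97 and 1.89, with opposite sign in plate 3 (-0.63 and -0.91). Cxcl2, a chemokine for neutrophils, stood at -1.76, and at -0.83 without those cells. Ccl7, the other chemokine past 1 lower and chosen after its values were seen, stood at -1.39.

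Toll-like receptors of microbial ligands differed among themselves. The list of receptors and adaptors had a median of -0.24 over 12 measured members (0.66, 0.56 and -0.96 by plate). Past 1 were 1 higher (8.33%, beside 6.95% of all genes) and 3 lower (25%, beside 4.63%). Without the cells rich in border macrophage markers 0 were higher and 3 lower, beside 5.99% and 5.36% of all genes. Tlr2 was higher by 1.87 and ran from 0.661 through 32.8 to 471 FPKM at day 2 and from 0.651 through 223 to 1091 at day 4, with -0.79, 3.40 and 0.33 by plate. Without the cells rich in border macrophage markers its pooled value was 1.93, but the plates no longer shared a sign. Tlr7 and Tlr1 stood at -1.27 and -1.23, and without plate 3 Tlr1 stood at 0.084. Ly96, the partner protein of Tlr4, stood at -1.10. Pycard, the adaptor of the inflammasome, was higher by 2.00 (6.03, 1.30 and 0.49 by plate), at 20 FPKM in 8 of 16 and 20 of 24 cells, with 50.7% of its values fractions of a read. It was the 1 gene of 8 measured in the interleukin-1 and inflammasome list past 1 (12.5%, beside 6.95% of all genes). Without the cells rich in border macrophage markers 0 were, beside 5.99% of all genes. Nlrp3 and Il18 stood at 0.99 and 0.92.

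Homeostatic genes are those of resting microglia, and most differed little between members of the days. Of 16 genes 3 were past 1 higher (18.8%, beside 6.95% of all genes) and 0 lower (beside 4.63%), with a median of 0.37 (1.09, 0.42 and 0.16 by plate). Tmem119, a surface marker of microglia, ran from 9.15 through 459 to 1602 FPKM at day 2 and from 9.61 through 513 to 2194 at day 4, a difference of 1.19. Olfml3, a secreted protein of microglia, was higher by 1.15 and Mertk, a receptor for the uptake of dying cells, by 1.10. P2ry12, Cx3cr1 and Csf1r, chosen after their values were seen, stood at -0.03, 0.08 and 0.28. Without the 2 cells rich in border macrophage markers the list had a median of 0.11 and 0 genes past 1.

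In Tnf-low cells the same list went the other way, with a median of -1.25 (-0.86, -1.79 and -1.38 by plate) and 9 of 16 genes past 1 lower, beside 5.5% of all genes. The median over all genes in Tnf-low cells was -0.02 (-0.18, -0.43 and 0.08 by plate). Tmem119 stood at -1.34 there, P2ry12 at -1.47, Cx3cr1 at -1.52 and Csf1r at -1.35. These values include the Tnf-low cells with at least 3 border macrophage markers, 6 of 38 at day 2 and 2 of 12 at day 4. The difference between Tnf-high and Tnf-low cells was not tested, since each day was 1 sample.

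**Figure D3:**
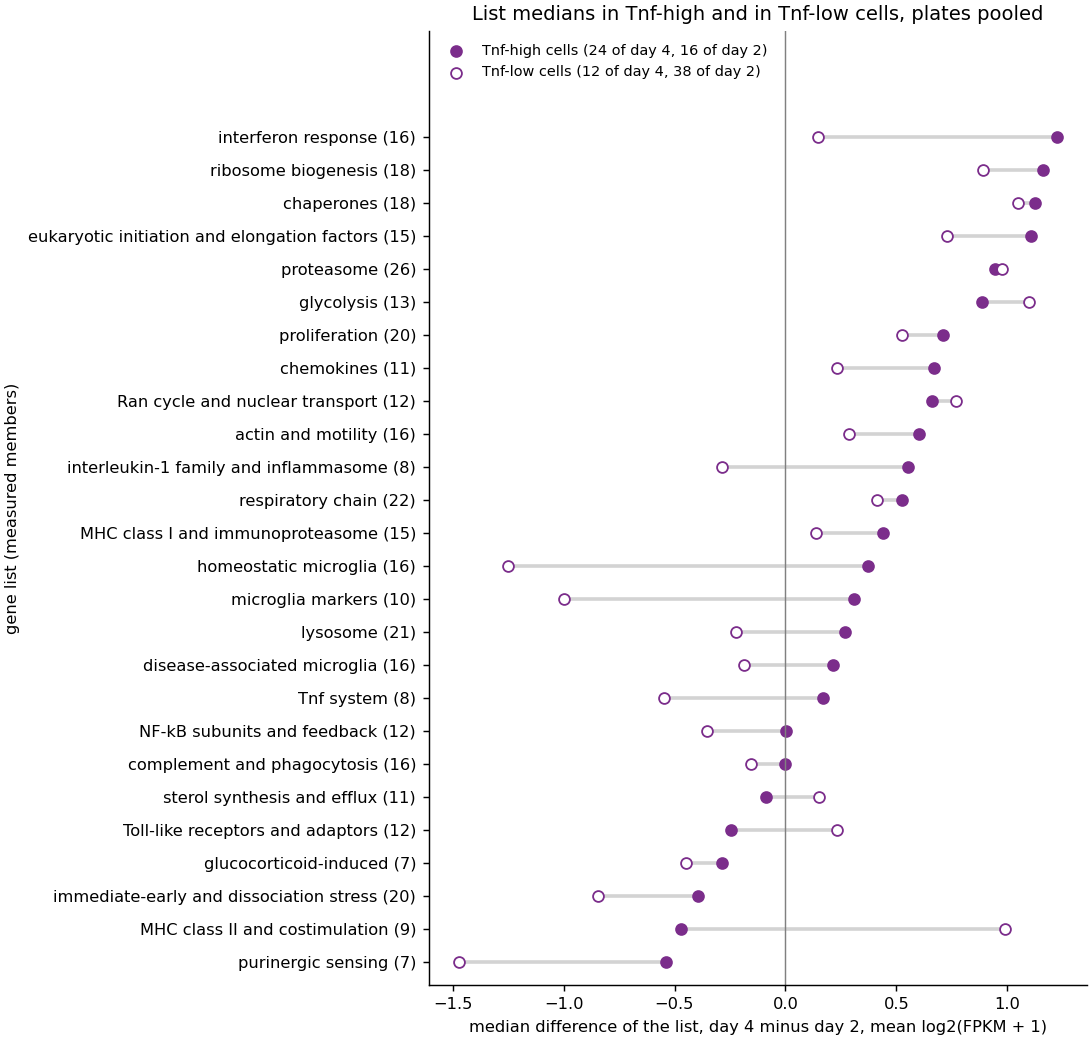
Median difference of each pathway list drawn, day 4 minus day 2 in mean log2(FPKM + 1) (x axis), in Tnf-high cells (filled) and Tnf-low cells (open), lists on the y axis with their measured members. The interferon list stands at 1.22 and 0.15, the homeostatic list at 0.37 and -1.25, and the proteasome list at 0.95 and 0.97.

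Apoe and genes of MHC class II were lower in members of day 4, and part of that lay in the cells rich in border macrophage markers. Apoe, the main lipid carrier made by glia and macrophages, ran from 5.73 through 217 to 34155 FPKM at day 2 and from 4.92 through 49.2 to 182 at day 4. The 2 highest cells of day 2, at 34155 and 32747 FPKM, were those rich in border macrophage markers. The difference was -3.24 (-7.19, -3.51 and -1.21 by plate) and -2.31 without these 2 cells. In Tnf-low cells it was 0.53 (-1.93, 5.41 and 1.08 by plate).

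H2-Aa, H2-Eb1 and H2-Ab1, which encode the chains that present peptides to helper T cells, stood at -2.45, -2.41 and -2.27. By plate H2-Aa stood at -7.49, -2.54 and -0.35, H2-Eb1 at -7.87, -1.87 and -0.79 and H2-Ab1 at -6.89, -2.14 and -0.54, so that plate 3 showed little of the pooled difference. Without the 2 cells they stood at -1.86, -1.59 and -1.55, and 1 of the 9 measured members of the list was past 1 lower (beside 5.36% of all genes), against 3 with them (33.3%, beside 4.63%). H2-Aa ran from 0 through 6.96 to 4089 FPKM at day 2 and from 0 through 0.458 to 9.04 at day 4, at 20 FPKM in 4 of 16 and 0 of 24 cells. Its highest cell, of plate 2, held 1 border macrophage marker and was none of the 2. That cell held 6 of 10 microglia markers, with P2ry12 at 1.30 FPKM, and stays in the values without the 2 cells. The list had a median of -0.47 over 9 measured members. In Tnf-low cells it was 0.99 pooled but -0.36, -0.68 and 0.75 by plate, so the plates did not share a sign. Cd74, the invariant chain, stood at -2.22 with opposite sign in plate 3 (0.70) and was not past 1.

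The disease-associated list, genes that microglia take up around damage, was split. Its median was 0.21 over 16 measured members, with 2 past 1 on each side (12.5%, beside 6.95% and 4.63% of all genes). Cst7, an inhibitor of cathepsins, was higher by 1.71 (3.27, 1.12 and 2.03 by plate), at 20 FPKM in 3 of 16 and 10 of 24 cells. Clec7a, a receptor of fungal glucans, was higher by 1.64, with -0.71, 3.14 and 0.73 by plate. Lgals3, which encodes galectin-3, stood at -1.98 (-1.23, -1.85 and -2.55), at 20 FPKM in 4 of 16 and 1 of 24 cells. In Tnf-low cells Cst7 stood at 0.00, Clec7a at -1.05 and Lgals3 at -0.43.

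Receptors of complement and of fragments of damaged cells also showed single genes apart from their list. The complement and phagocytosis list had a median of 0.00 over 16 measured members, with 3 past 1 higher (18.8%, beside 6.95% of all genes). Itgam and Itgb2 encode the alpha and beta chain of complement receptor 3. Itgam was higher by 2.14 (2.15, 1.48 and 2.93 by plate), at 20 FPKM in 5 of 16 and 19 of 24 cells, though 59.7% of its values were fractions of a read. Itgb2 was higher by 1.44 (-0.27, 3.50 and 0.94 by plate) and stood at -0.36 without plate 2. P2rx4, a channel opened by ATP, stood at -1.64 and was at 20 FPKM in 7 of 16 and 6 of 24 cells.

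Genes of protein synthesis and breakdown were higher in plates 1 and 2 and not in plate 3. Ribosome biogenesis had a median of 1.161 (7 of 18 past 1 higher, 1 lower), chaperones 1.13 (3 of 18), initiation and elongation factors 1.11 (3 of 15) and the proteasome 0.95 (10 of 26). Of all genes 6.95% were past 1 higher and 4.63% lower. In plate 3 these medians were 0.02, -0.49, -0.41 and -0.49, beside -0.24 over all genes. Detected genes per cell ran the same way by plate. With them as a covariate the pooled medians were 1.25, 1.22, 1.13 and 1.0. Pooled detected genes were close between the days (medians of 4408.5 and 4523), so this fit cannot address the order by plate. Without the cells rich in border macrophage markers, 4 of 18, 3 of 18, 2 of 15 and 7 of 26 genes were past 1 higher, beside 5.99% of all genes. Tnf-low cells had medians of 0.89, 1.05, 0.73 and 0.97.

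Within those lists some genes kept their size in plate 3. Psmd14 and Psmd7, subunits of the lid of the proteasome that remove ubiquitin or hold the enzyme that does, were higher by 2.54 (2.16, 3.11 and 2.72) and 2.40 (3.74, 2.37 and 2.32). Psmd14 ran from 0.0987 through 1.27 to 58.4 FPKM at day 2 and from 0.116 through 55.6 to 303 at day 4, at 20 FPKM in 2 of 16 and 14 of 24 cells. Psmd12 was higher by 1.597 and stood at -0.13 without plate 2. Ncl, encoding nucleolin, was higher by 1.98 (2.73, 2.21 and 0.72). Nop56 was higher by 2.32 and Nme1 by 3.25, but 66.9% and 66.2% of their values were fractions of a read.

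**Figure D4:**
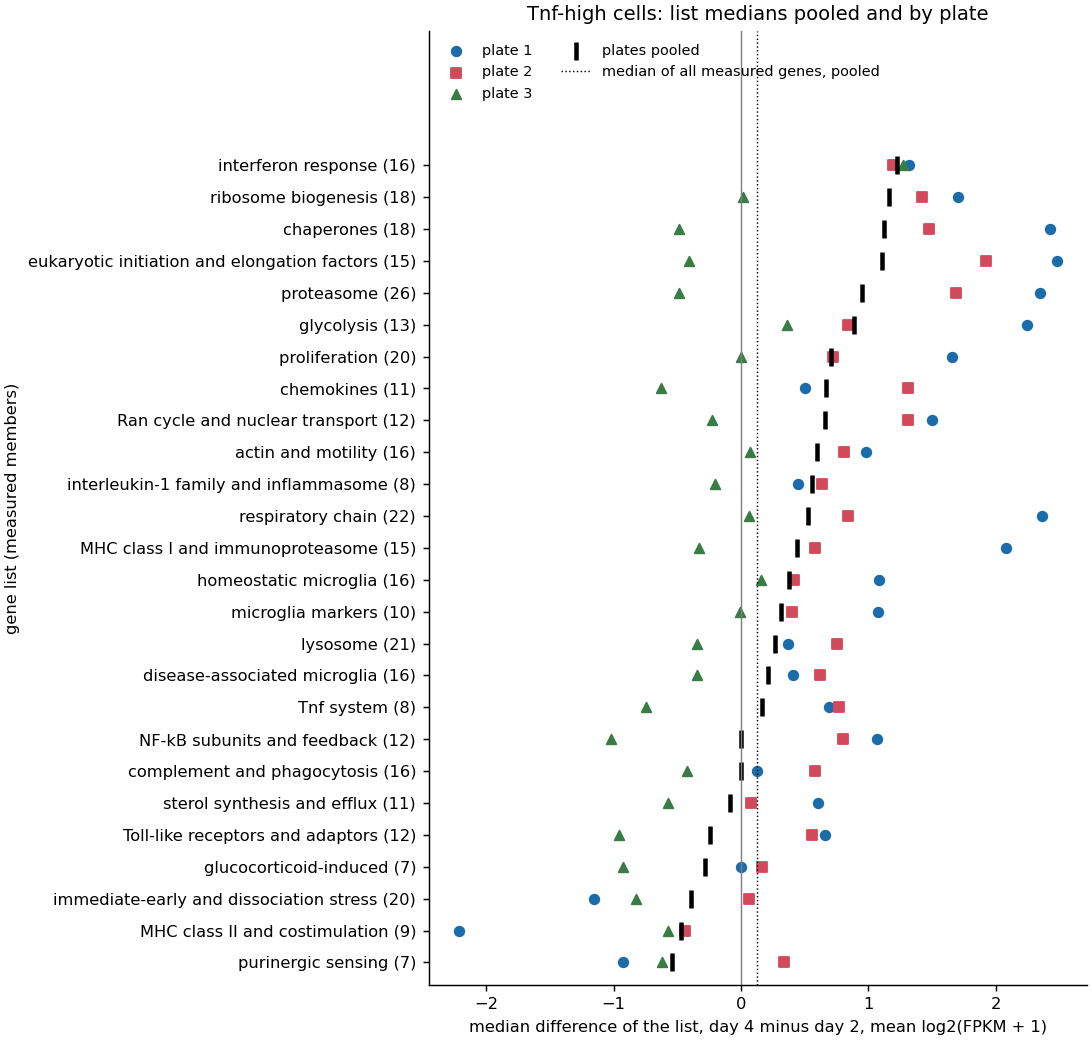
Median difference of each pathway list drawn in Tnf-high cells, day 4 minus day 2 in mean log2(FPKM + 1) (x axis), by plate (coloured points) and pooled (black bar), with the pooled median of all measured genes as a dotted line. The interferon list stands between 1.19 and 1.31 in all plates, while chaperones, translation factors and the proteasome stand below 0 in plate 3.

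Glycolysis had a median of 0.89 over 13 measured members (4 past 1 higher, 30.8% beside 6.95% of all genes, and 0 lower) and 2.24, 0.84 and 0.36 by plate, above the median of all genes in each plate. Slc16a3, the lactate exporter of glycolytic cells, was higher by 2.36 (2.35, 3.96 and 0.36), at 20 FPKM in 2 of 16 and 11 of 24 cells, and shares exon positions with Csnk1d. Ldha, which makes lactate, was higher by 2.22 (0.98, 2.21 and 2.71), with 77.8% of its values fractions of a read. The respiratory chain list had a median of 0.53, with 5 of 22 past 1 higher (22.7%, beside 6.95% of all genes). Without the cells rich in border macrophage markers 2 of 22 were, beside 5.99% of all genes, which is near the background. Tnf-low cells had medians of 1.10 and 0.41 for these lists.

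Among single genes outside the lists, P4ha1 had the largest difference of those that the naming rule allows. It encodes a subunit of prolyl 4-hydroxylase, which modifies collagen. It ran from 0 through 0.524 to 131 FPKM at day 2 and from 0.0245 through 54.01 to 183 at day 4, at 20 FPKM in 4 of 16 and 18 of 24 cells. The mean was 1.89 ± 2.22 and 4.999 ± 2.38 (SD), a difference of 3.10 (2.62, 3.70 and 1.40 by plate), beside -0.65 in Tnf-low cells, of which 5 of 38 and 0 of 12 reached 20 FPKM. Emc3, a part of the complex that inserts membrane proteins, was higher by 3.08 (4.82, 3.62 and 1.79), and by 0.42 in Tnf-low cells. Atxn10 was higher by 2.64 and Ppp1r11, an inhibitor of protein phosphatase 1, by 2.57, beside -0.38 and -0.63 in Tnf-low cells.

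The other genes of the 15 largest positive differences were Gnl2 at 2.48, Cops6 at 2.48, Tmem30a at 2.44, Ruvbl2 at 2.42, Mrps7 at 2.40 and Bola2 at 2.37. Ruvbl2 stood at -1.99 in plate 1, which held 2 members of day 2. Cops6, Bola2, Ruvbl2, Gnl2 and Mrps7 share exon positions with neighbouring genes, Cops6 with Mcm7 of the proliferation list and Bola2 with Coro1a. In Tnf-low cells Gnl2 and Bola2 stood at 1.29 and 2.03 and the other 4 between -0.23 and 0.10.

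On the lower side Ypel3, a small protein linked to growth arrest, had the largest difference. It ran from 0.854 through 95.5 to 458 FPKM at day 2 and from 0.230 through 0.977 to 52.4 at day 4. It was at 20 FPKM in 11 of 16 members of day 2 (68.8%, 41.3 to 89.0%) and 6 of 24 of day 4 (25%, 9.77 to 46.7%), with no cell of day 4 above 52.4. The mean was 5.37 ± 2.54 and 1.97 ± 1.97 (SD), a difference of -3.40 (-1.84, -3.84 and -3.33 by plate). Tnf-low cells showed -2.18, and Tnf-high untreated cells reached 20 FPKM in 7 of 10.

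Apobec1, an enzyme that edits cytidine in RNA, stood at -3.05 (-4.50, -2.59 and -2.17), at 20 FPKM in 10 of 16 and 4 of 24 cells, beside -0.25 in Tnf-low cells. Anxa5, encoding annexin A5, stood at -2.76 (-4.07, -1.53 and -3.86), with a median of 160 FPKM at day 2 and 1.75 at day 4. S100a1, a calcium-binding protein, reached 20 FPKM in 5 of 16 and 0 of 24 cells and stood at -2.56. Ramp1, which pairs with the receptor of the neuropeptide CGRP, stood at -2.53 (-2.00, -2.58 and -2.63) and at -2.04 in Tnf-low cells. Cyp27a1, which hydroxylates cholesterol, stood at -2.43. Rnf167, Cib1, Acot13, Plekhj1 and Tnfaip8l2 stood between -2.48 and -2.28. In Tnf-high cells each of these 10 genes had a negative difference in all 3 plates.

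Csf3r, the receptor of granulocyte colony-stimulating factor and the only measured gene of the neutrophil list, stood at -2.09 (-5.31, -1.29 and -1.97), at 20 FPKM in 12 of 16 and 12 of 24 cells, with 56.9% of its values fractions of a read. Tsc22d3, a gene that glucocorticoids induce, stood at -1.82 (-3.68, -0.46 and -2.10) and at -2.10 in Tnf-low cells. Immediate-early and dissociation stress genes had a median of -0.40 (-1.15, 0.06 and -0.83 by plate). Of 20 measured members 0 were past 1 higher (beside 6.95% of all genes) and 1 lower, Rgs1 at -1.05 (5%, beside 4.63%). In Tnf-low cells that list stood at -0.85.

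Across genes, the differences of Tnf-high cells and of Tnf-low cells had a Pearson r of 0.22 over 8679 genes, which are not independent replicates. Of the 603 genes past 1 higher in Tnf-high cells 66.2% were also higher in Tnf-low cells, beside 48.8% of all genes. Of the 402 past 1 lower 67.9% were also lower there, beside 51.2% of all genes. These shares say how far the days differed alike at both Tnf levels and are no measure of replication, since the cells of a day share their plate rows.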

How the data were processed

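The authors deposited FPKM values in 1 table of 55364 rows by 144 cells, each scaled to the assigned reads of its cell and to gene length. The submitters' processing notes name STAR 2.7.2b, featureCounts 1.6.1 and 3 read trimmers (cutadapt 1.16, Trimmomatic 0.36 and Trim Galore 0.4.4), and the builds GRCm38.p6 and mm10; their settings were not given. Depth was recovered from the value of 1 read; a median of 59.3% of values above 0 were whole reads (tolerance 0.01), so no count model was fitted. Where rows repeated a symbol (110 rows), that with the highest mean value was used. A gene was measured where 10% of cells or more reached 1 FPKM (8679 genes).

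Differences use a pseudocount of 1, which understates low genes. The functions were tested on simulated data. Named genes were Gpr84, Tnf and Il1a, the 15 largest differences on each side among genes with FPKM of at least 1 in 30% of the cells of 1 day, the same sign in plates 2 and 3 and at most 50% fractional values, and up to 4 members per list of the largest size. The members and lists were chosen with earlier results of these data known. Python 3.11.15, numpy 2.4.6, pandas 2.3.3, scipy 1.17.1 and matplotlib 3.10.9 were used. Some results are not reported here.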

Additional observations from a re-analysis of the deposited data

Results flagged for a closer look

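For 1 list and 7 named genes every plate had one sign in Tnf-high cells and the opposite sign in Tnf-low cells, day 4 minus day 2. None of these differences was tested, since each day was 1 sample, and plate 2 held 1 Tnf-low cell of day 4. That cell had at least 3 border macrophage markers at 20 FPKM or more, and the Tnf-low values of plate 2 rest on it.

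The homeostatic list had a median difference of 0.37 in Tnf-high cells and -1.25 in Tnf-low cells, and its member Tmem119 stood at 1.19 and -1.34. Without the 2 cells rich in border macrophage markers these Tnf-high values were 0.11 and 0.66, beside 0.08 over all genes. Of the 2 Tnf-high cells of day 2 in plate 1, 1 was such a cell. Rtp4 stood at 2.94 and -1.12, with -1.47, -1.84 and -1.24 in the 3 plates of Tnf-low cells. P4ha1 stood at 3.10 and -0.65, where plate 3 of the Tnf-low cells gave -0.03. Nfkb1, a subunit of NF-kB, stood at 1.21 and -0.998. Its median in Tnf-high cells was only 0.233 FPKM at day 2 and 0.153 at day 4. Npm1, a nucleolar protein of the ribosome biogenesis list, stood at 1.92 and -1.57, where plate 3 of the Tnf-high cells gave 0.09. Stat2, chosen after its values were seen, stood at 1.08 and -0.14, where plate 1 of the Tnf-low cells gave -0.01. Tnf stood at 1.44 and -0.03, but Tnf set the 2 groups of cells, and its values are a description only.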

How the results depend on the processing

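The count of genes higher by at least 1 was 603, and it was 168 with a pseudocount of 10, 1144 on the log2 of the mean FPKM, 1741 without plate 3 and 1001 with only cells of at least 2 M reads. The last 2 settings leave 1 plate for the sign. The count of genes lower by at least 1 was 402, and it was 947 with a pseudocount of 0.1, 52 with 10, 624 on the log2 of the mean FPKM, 244 with a Tnf threshold of 10 FPKM and 1460 without plate 2, again with 1 plate for the sign. For the other settings the cause was not tested. The border macrophage list stood at -1.20 and at -4.20 on the log2 of the mean FPKM, a scale on which its 2 highest cells weigh most. Among genes past 1, sign turned for Tlr1 (0.084 without plate 3), Itgb2 (-0.36 without plate 2) and Psmd12 (-0.13 without plate 2). Values not past 1 turned too. Without plate 2 Ccl2 stood at -0.11, Il18 at -0.70, Adam17 at -0.09 and the medians of the chemokines at -0.11 and the Tnf system at -0.31, and the homeostatic median was -0.04 on the log2 of the mean FPKM. In all, 23 genes and 11 list medians had the other sign in at least 1 setting. Over all settings 521 list medians and 2575 gene values moved by less than the spread between cells, and 14 gene values moved by more. The values that turned sign are among those that moved less, except the 3 of Tlr1, Itgb2 and Psmd12. All 12 shares of Gpr84 and Il1a with Tnf and gene thresholds changed together lay within their intervals. With Tnf kept at 20 FPKM, day 2 shares at 100 FPKM lay outside their intervals at 20 FPKM. These were 50% for Gpr84 (54.4 to 96.0%) and 56.25% for Il1a (61.7 to 98.4%). Leaving out the 2 cells rich in border macrophage markers and keeping cells of at least 1 M reads were chosen after seeing the data. No paired analysis was possible because the labels number no replicates that the days share. Plates are shared, and with plate as a block 691 genes were higher and 352 lower by at least 1. Members of day 2 are fewer and, pooled, shallower, but deeper in plate 3.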
